A study of Mus musculus with 30 samples.

Results

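The serotonin receptor genes described here are Htr1a, Htr1b, Htr2a, Htr2c, Htr3a, Htr4, Htr5a, Htr5b and Htr7. They were taken by symbol, through their Ensembl identifiers, from a table of 17477 genes, and all 9 were in it. RNA-seq with selection of polyadenylated RNA was run on the hippocampus of 30 adult C57 BL/6J mice, each library being 1 mouse. Socially isolated (SI) mice, 8 females and 7 males, were moved to single cages after weaning, and group-housed (GH) mice, 7 females and 8 males, lived with cage mates over the same period. No mouse carried a named allele or received a drug. Isolation lasted until the tissue was taken, so early isolation and isolation in adulthood cannot be told apart. Cage mates are not given in the labels. The question was whether isolation altered the RNA level of these receptors in either sex, and whether its effect differed between the sexes.

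Serotonin is released in the hippocampus by axons of the raphe nuclei in the brainstem, whose cell bodies are not in the tissue, and its receptors sit on local neurons and on incoming axons. The receptors of the Htr1 and Htr5 families couple to inhibitory G proteins that lower cAMP, those of the Htr2 family couple to Gq and phospholipase C, and Htr4, Htr6 and Htr7 couple to Gs and raise cAMP. Htr3a is the exception, a subunit of an ion channel that serotonin opens directly.

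Total counts per library ranged from 18809307 to 100844898. Libraries of 3 SI males, animals 25, 33 and 39, stood apart from the other males. Their scores on the leading principal component of the male libraries (58.9% of variance) were -99.75 to -61.63, and those of the other 12 males -1.314 to 35.3. In those libraries long transcripts had lower counts, with slopes of log2 level on each doubling of transcript length of -0.481 to -0.376, against -0.0853 to 0.181 in the other 12 males. Their part in the male results was not tested beyond leaving them out. Defining markers of the hippocampus were present in all groups, with summed levels of 5 CA1 markers between 595 and 949 CPM, of 5 CA3 markers between 233 and 320 CPM and of 7 dentate gyrus markers between 311 and 525 CPM. CPM express each gene's reads relative to the size of its library after TMM normalization.

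None of the 9 receptor genes passed the test in females, in males or for a difference between the sexes. The test was edgeR's quasi-likelihood test over all genes within a sex, with surrogate variables in the model and a Benjamini-Hochberg adjusted p under 0.05 as the threshold. In females 0 of 9 receptors were called, where 3.89% of 16026 genes were. In males 0 of 9 were called, where 0.0% of 15833 genes were. At an unadjusted p under 0.05 the count of receptors was 0 of 9 in both sexes, and the share of all genes was 20.2% in females and 13.0% in males. DESeq2 with the same surrogate variables and limma-voom with sample quality weights and none called 0 of 9 in each sex as well. In females 5 of the 9 had a positive and 4 a negative fitted Log2FC, beside 52.8% and 47.2% of all genes, and in males 6 of 9 were negative, beside 50.7% of all genes. The median fitted Log2FC of the 9 receptors was 0.018 in females and -0.068 in males, beside 0.008 and -0.002 over all genes tested. In bulk tissue fewer cells of a type and less RNA per cell cannot be told apart. Each library came from a different mouse, and the p-values measure the spread between mice that remains after the surrogate variables. In males 1 of the 2 surrogate variables was 0.3445 to 0.5968 in SI males 25, 33 and 39. It was -0.2644 to -0.02749 in all other males. Male fits with surrogate variables therefore already adjusted for part of what set those SI mice apart. GH mice shared cages that the labels do not name, so spread between cages was not modelled. The ranges of SI and GH mice overlapped for all 9 receptors in both sexes, while they did not overlap for 0.324% of the genes tested in females and 0.0758% in males.

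**Figure D1:**
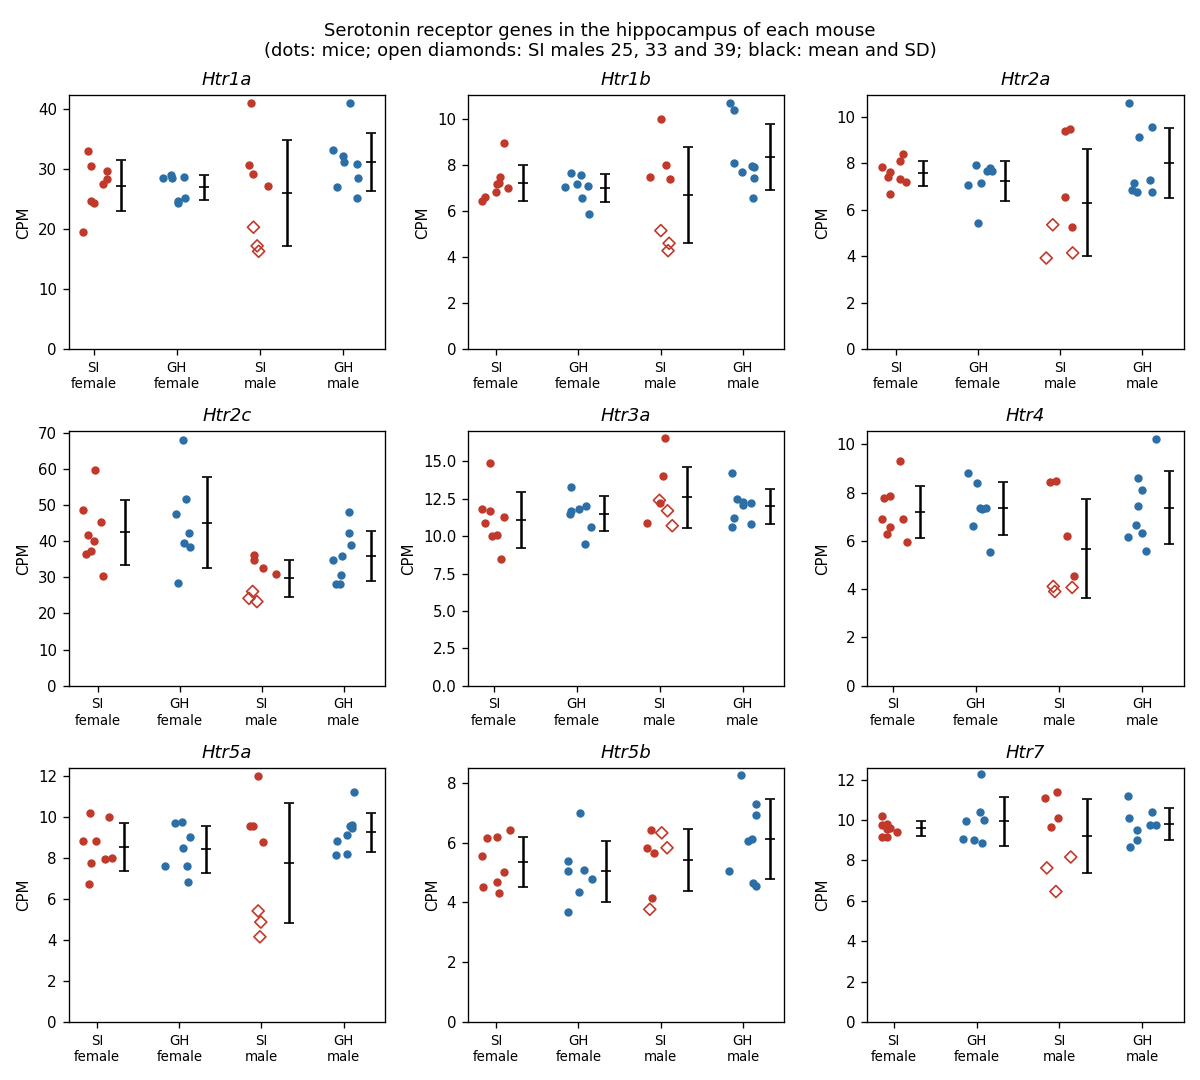
Level of each of the 9 serotonin receptor genes in each of the 30 mice, in CPM on an axis from 0, by sex and housing. Dots are mice, open diamonds are SI males 25, 33 and 39, and black bars are the mean and SD of the group. SI and GH dots overlap in every panel, and the 3 diamonds lie below all other males for Htr1a, Htr1b, Htr2c, Htr4, Htr5a and Htr7.

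All 9 receptors were detected in every library, none falling below 1 CPM in any mouse. The smallest number of reads behind a value was 72, for Htr4 in SI male 39, and the largest was 4726, for Htr2c. Mean CPM placed the receptors in the middle of the table: 69.6% of genes had a lower mean than Htr2c, 62.6% a lower mean than Htr1a, and 34.4% a lower mean than Htr5b, the lowest of the 9. To set the genes beside each other, CPM were divided by the length in kilobases of the longest coding transcript of GENCODE vM1. On that scale the median level over 30 mice was 7.55 CPM per kb for Htr2c, 6.41 for Htr1a, 5.73 for Htr1b and 5.64 for Htr3a. Htr7 followed at 3.08 CPM per kb, Htr5b at 2.83, Htr2a at 2.46, Htr5a at 1.58 and Htr4 at 1.48. The order was partly resolved. Htr3a was above Htr7 in 30 of 30 mice with no overlap of their ranges, and Htr2a was above Htr5a in 30 of 30 although their ranges overlapped. Htr1b exceeded Htr3a in only 16 of 30 mice, and Htr5a exceeded Htr4 in 18 of 30, so those neighbours were not separated. The length of Htr1b is uncertain: its transcript in GENCODE vM1 has 1273 bases and its gene in RefSeq 5542. With the longer length its median of 7.3 CPM would give a level per kb below that of Htr4, at 1.48. The place of Htr1b in the order is therefore not settled.

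Htr1a encodes the main inhibitory serotonin receptor on hippocampal pyramidal cells, which opens potassium channels of the GIRK type. The gene lies on chromosome 13 (106233773 to 106238213 on NCBIM37, plus strand). Its level ran from 19.5 to 33 CPM in SI females with a median of 27.9, and from 24.4 to 28.9 CPM in GH females with a median of 28.4. SI females were the more scattered group, with 3 mice above and 2 below the whole GH range. The fitted Log2FC was 0.042 in females (95% interval -0.137 to 0.22, adjusted p = 0.836, edgeR). Among males it ran from 16.3 to 41 CPM in SI with a median of 27.2, and from 25.1 to 41 CPM in GH with a median of 31.0. The 3 SI males below the GH range were animals 25, 33 and 39, and the 4 others lay between 27.2 and 41 CPM. With surrogate variables the male Log2FC was -0.09 (95% interval -0.236 to 0.0533, adjusted p = 0.564, edgeR). Without those 3 mice it was -0.13 (adjusted p = 0.843), and without surrogate variables as well 0.039 (adjusted p = 0.996).

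Htr1b encodes the inhibitory receptor best known from axon terminals, where it reduces release. It lies on chromosome 9 (81524950 to 81526222 on NCBIM37, minus strand). SI females had 6.44 to 8.96 CPM (median 7.08) and GH females 5.85 to 7.63 CPM (median 7.1). Only SI female 73 exceeded the GH range and only GH female 78 lay below the SI range. In males the SI range was 4.28 to 9.98 CPM (median 7.37) and the GH range 6.56 to 10.7 CPM (median 7.93), the 3 mice under the GH range again being animals 25, 33 and 39. Fitted Log2FCs were 0.049 in females and -0.068 in males (adjusted p = 0.784 and 0.811, edgeR). Without those 3 mice the male value was -0.052 (adjusted p = 0.974).

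The Gq-coupled receptors of the set are Htr2a and Htr2c. The smallest adjusted p of the family was that of Htr2c in females and that of Htr2a in males. The other gene of the pair did not come next in either sex. Htr2a, the receptor through which psychedelic drugs act, lies on chromosome 14 (75040647 to 75106666 on NCBIM37, plus strand). In females it was at 6.7 to 8.41 CPM in SI (median 7.53) and 5.44 to 7.93 CPM in GH (median 7.66). Those ranges overlapped except for GH female 78 at the bottom and 2 SI mice at the top. The male SI range was 3.93 to 9.46 CPM (median 5.36) and the GH range 6.75 to 10.6 CPM (median 7.23). Of the 7 SI males 5 lay below every GH male, namely animals 25, 33 and 39 and, at 5.28 and 6.55 CPM, animals 38 and 27. The fitted male Log2FC was -0.16 (95% interval -0.391 to 0.0737, adjusted p = 0.534, edgeR), the lowest adjusted p of the family in males. It was -0.34 without surrogate variables (adjusted p = 0.22) and -0.06 when animals 25, 33 and 39 were left out as well (adjusted p = 0.995). With surrogate variables and without those 3 mice it was -0.14 (adjusted p = 0.843). In females it was 0.071 (95% interval -0.0633 to 0.204, adjusted p = 0.583).

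Htr2c, the other Gq-coupled receptor, is known for editing of its RNA and for a very high level in the choroid plexus, the epithelium that makes cerebrospinal fluid. It lies on chromosome X (143397056 to 143631820 on NCBIM37, plus strand). Levels were 30.3 to 59.7 CPM in SI females (median 41) and 28.4 to 68.2 CPM in GH females (median 42.4). The SI range lay inside the GH range. Its fitted Log2FC in females was -0.12 ± 0.0744 (SE), with a 95% interval of -0.279 to 0.0349 and an adjusted p of 0.383 in edgeR, the lowest of the 9. When the trend of each library with transcript length and GC content was removed, the value was -0.17 and passed the threshold at an adjusted p of 0.0497, with 1156 of all genes called in place of 624. None of the other alternatives run in females called it, including DESeq2 (adjusted p = 0.335) and the fit without surrogate variables (Log2FC -0.09, adjusted p = 0.905). Males had 23.3 to 36.3 CPM in SI (median 31.0) and 28.2 to 48.1 CPM in GH (median 35.3). The 3 lowest were once more animals 33, 39 and 25, between 23.3 and 26.1 CPM, and 3 GH males exceeded every SI male. The male Log2FC was -0.06 (95% interval -0.268 to 0.144, adjusted p = 0.814, edgeR). It was -0.27 without surrogate variables (adjusted p = 0.175) and -0.09 without surrogate variables and those 3 mice (adjusted p = 0.994). With surrogate variables and without those 3 mice it was -0.017 (adjusted p = 0.996).

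Htr3a, on chromosome 9 (48707319 to 48719204 on NCBIM37, minus strand), encodes the subunit that every serotonin-gated channel needs, and in the forebrain it marks a class of interneurons. Female levels were 8.49 to 14.9 CPM in SI (median 11.1) and 9.51 to 13.3 CPM in GH (median 11.7). Male levels were 10.7 to 16.6 CPM in SI (median 12.2) and 10.6 to 14.2 CPM in GH (median 12.2). Animals 25, 33 and 39 were not the lowest males for this gene. They ranked from 2 to 11 of 15. The Log2FC was -0.048 in females (95% interval -0.244 to 0.149, adjusted p = 0.83) and 0.1 in males (95% interval -0.0826 to 0.276, adjusted p = 0.631), both by edgeR. Without those 3 mice the male value was 0.023 (adjusted p = 0.991).

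Htr4 and Htr7 encode the Gs-coupled receptors of the set. Htr4, on chromosome 18, was at 5.95 to 9.32 CPM in SI females (median 6.92) and 5.53 to 8.82 CPM in GH females (median 7.35). The female ranges coincided but for 1 SI mouse at the top and 1 GH mouse at the bottom. In males it was at 3.9 to 8.46 CPM in SI (median 4.54) and 5.57 to 10.2 CPM in GH (median 7.04). Of the 7 SI males 4 lay under every GH male, animal 38 at 4.54 CPM beside animals 25, 33 and 39 at 3.9 to 4.11 CPM. The male Log2FC was -0.18 (95% interval -0.483 to 0.129, adjusted p = 0.604, edgeR) and the female value -0.012 (adjusted p = 0.953). Without animals 25, 33 and 39 the male value was -0.054 with surrogate variables and -0.094 without them (adjusted p = 0.976 and 0.995). With a single male left out it ran from -0.3043 to -0.0824. Htr7, on chromosome 19 (36033224 to 36131997 on NCBIM37, minus strand), had the tightest female group, 9.14 to 10.2 CPM in SI (median 9.58), inside the GH range of 8.85 to 12.3 CPM (median 9.95). Its coefficient of variation was 3.71% in SI females and 12.2% in GH females. In males it was at 6.46 to 11.4 CPM in SI (median 9.67) and 8.66 to 11.2 CPM in GH (median 9.75), with animals 33, 25 and 39 as the 3 lowest. Fitted Log2FCs of Htr7 were -0.073 in females and 0.084 in males (adjusted p = 0.566 and 0.634, edgeR). The male value was -0.085 without surrogate variables and 0.057 without animals 25, 33 and 39 (adjusted p = 0.952).

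Htr5a and Htr5b encode the least studied inhibitory receptors. Htr5a, on chromosome 5 (28168487 to 28181626 on NCBIM37, plus strand), was at 6.73 to 10.2 CPM in SI females (median 8.41) and 6.82 to 9.76 CPM in GH females (median 8.47). It had the widest gap, relative to its level, between the 3 SI males and the rest, 4.15 to 5.41 CPM in animals 25, 33 and 39 against 8.15 to 12 CPM in the other 12 males. GH males had 8.15 to 11.2 CPM (median 9.29), so the other 4 SI males, at 8.75 to 12 CPM, were inside or above the GH range. Its Log2FC in males was 0.028 with surrogate variables (95% interval -0.13 to 0.185, adjusted p = 0.905) and -0.25 without them (adjusted p = 0.349), both by edgeR. Without animals 25, 33 and 39 it was 0.0074 (adjusted p = 0.999). Htr5b, on chromosome 1 (123406419 to 123425042 on NCBIM37, minus strand), was at 4.3 to 6.42 CPM in SI females (median 5.28) and 3.69 to 6.99 CPM in GH females (median 5.05), the SI range inside the GH range. Male levels were 3.77 to 6.42 CPM in SI (median 5.81) and 4.54 to 8.28 CPM in GH (median 6.09), and 3 GH males were above every SI male. Neither gene approached the threshold in females, with Log2FCs of 0.018 for Htr5a and 0.027 for Htr5b (adjusted p = 0.936 and 0.923, edgeR). Htr5b had the widest male interval of the family, -0.477 to 0.22 around a Log2FC of -0.13 (adjusted p = 0.76). Leaving out animals 25, 33 and 39 with surrogate variables estimated again gave -0.43 at an unadjusted p of 0.0206 and an adjusted p of 0.748.

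**Figure D2:**
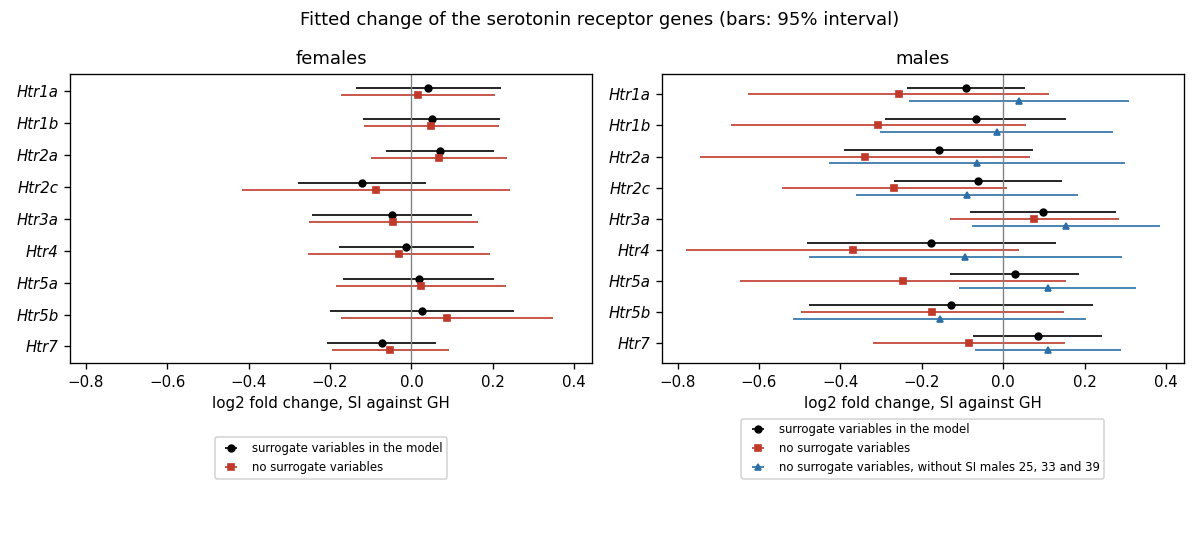
Fitted Log2FC of SI against GH for the 9 receptor genes in females (left) and males (right), with 95% intervals as bars and 0 as the grey line. Black circles are the fits with surrogate variables, red squares the fits without them, and blue triangles the male fits without surrogate variables and without SI males 25, 33 and 39. Every interval includes 0, and the blue points lie to the right of the red ones for all 9 genes.

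The limits on a fold that could have been missed depended on the model. With surrogate variables the intervals in females reached from a fold of 0.824, the lower bound of Htr2c, to 1.19, the upper bound of Htr5b. In males they reached from 0.715, the lower bound of Htr4, to 1.21, the upper bound of Htr3a. Without surrogate variables the limits were 0.75 and 1.27 in females and 0.583 and 1.22 in males, and with the position digit of the sample titles in their place 0.71 and 1.35 in females and 0.554 and 1.22 in males. In males without animals 25, 33 and 39 and with surrogate variables they were 0.579 and 1.19.

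The interaction of sex and housing was fitted over all 30 mice, where 0 of 9 receptors and 0.0% of 16391 genes were called. At an unadjusted p under 0.05 the count of receptors was 0, beside 7.75% of all genes, and the lowest adjusted p of the 9 was 0.697. Of the 9 receptors 6 had a lower Log2FC in males than in females in this joint fit, as 53.7% of all genes did. The joint fit has its own surrogate variables, and Htr5a, one of the 6 at -0.027, was not lower in males in the fits per sex. The largest such difference was that of Htr5b, -0.31 (95% interval -0.705 to 0.0782, adjusted p = 0.726), and the next that of Htr2a, -0.2 (95% interval -0.433 to 0.0262, adjusted p = 0.697). With animals 25, 33 and 39 left out the difference was -0.38 for Htr5b (unadjusted p = 0.0478, adjusted p = 0.535) and -0.18 for Htr2a (adjusted p = 0.569, edgeR).

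SI males 25, 33 and 39 were the 3 lowest of the 15 males for 6 of the 9 receptors, namely Htr1a, Htr1b, Htr2c, Htr4, Htr5a and Htr7. Htr2a came close, these animals holding ranks 1, 2 and 4. Without surrogate variables 8 of 9 receptors had a negative male Log2FC, from -0.37 for Htr4 upwards, with Htr3a at 0.076 as the exception, and 0 of 9 were called. In the same fit 49.9% of all genes were negative. Without those 3 mice and without surrogate variables 5 were negative and 4 positive, from -0.16 for Htr5b to 0.15 for Htr3a, with 49.6% of all genes negative.

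The receptor genes were also compared with each other from mouse to mouse. Log2 CPM were centred on the 4 groups, so that housing and sex did not enter, and correlated over the 30 mice. Of the 36 pairs 18 had a Pearson's r above 0.5, with a median of 0.508. Without animals 25, 33 and 39 only 5 of 36 did, with a median of 0.253 over 27 mice. Htr2a and Htr4 stayed the closest pair, at r = 0.841 with and 0.793 without those 3 mice, followed by Htr1b and Htr2a at 0.808 and 0.707. Htr5a and Htr7 went from 0.678 to 0.071, and Htr5b was below 0.4 with every other receptor in both sets. All these values share the libraries' depth and scaling and are given as a description. The share of all gene pairs with an r above 0.5 is not given here. The counts are therefore not read as a trait of the receptors.

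**Figure D3:**
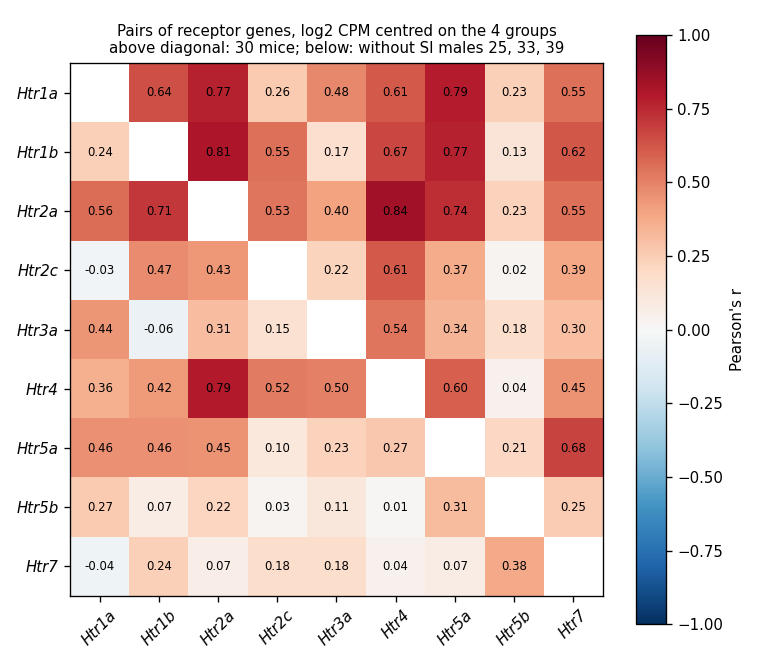
Pearson's r of log2 CPM, centred on the 4 groups, for each pair of the 9 receptor genes. Cells above the diagonal use 30 mice and cells below it leave out SI males 25, 33 and 39; red is positive and blue negative. Htr2a with Htr4 is dark on both sides, 0.841 and 0.793, whereas most other pairs are paler below the diagonal.

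The sequences just before the start of transcription are shown for 3 receptors, Htr1b and Htr2a, the closest pair among the receptors searched, and Htr2c, the receptor with the highest level per kb. Htr2c was at r = 0.553 with Htr1b and 0.533 with Htr2a. RefSeq promoters on GRCm38.p6 were found for 6 of the 9 receptors, and the 250 bases before the start were searched on both strands for the TATA box TATAAA, for the GC box GGGCGG, for the motif CCAAT and for the cAMP response element TGACGTCA, none of which contains another. Matches are in capitals, ATTGG being CCAAT and CCGCCC being GGGCGG on the other strand.
Htr1b, chr9:81633833-81634082, minus strand: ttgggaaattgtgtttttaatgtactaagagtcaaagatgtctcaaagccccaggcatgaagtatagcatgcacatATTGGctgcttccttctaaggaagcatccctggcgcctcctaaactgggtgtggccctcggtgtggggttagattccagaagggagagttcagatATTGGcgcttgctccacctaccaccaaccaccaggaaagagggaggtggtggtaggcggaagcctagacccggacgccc
Htr2a, chr14:74640624-74640873, plus strand: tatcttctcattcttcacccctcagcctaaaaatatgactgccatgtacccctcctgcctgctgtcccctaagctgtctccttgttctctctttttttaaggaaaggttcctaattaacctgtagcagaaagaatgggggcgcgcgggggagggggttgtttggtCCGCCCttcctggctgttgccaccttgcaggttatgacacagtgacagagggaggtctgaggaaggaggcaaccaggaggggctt
Htr2c, chrX:146962263-146962512, plus strand: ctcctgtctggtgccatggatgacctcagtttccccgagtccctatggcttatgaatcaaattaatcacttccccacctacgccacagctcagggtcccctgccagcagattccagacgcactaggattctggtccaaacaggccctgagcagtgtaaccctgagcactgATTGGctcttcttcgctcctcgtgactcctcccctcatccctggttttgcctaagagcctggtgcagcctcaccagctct

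Htr1b held 2 CCAAT matches and no other motif, Htr2a held 1 GC box and Htr2c 1 CCAAT match. None of these 3 windows held TATAAA or TGACGTCA. Over 32851 promoters of the same length, CCAAT was found in 33.8%, GGGCGG in 32.7%, TATAAA in 12.4% and TGACGTCA in 1.5%. Of the other receptors searched, Htr7 had the most GC-rich window, 82.0% with 41 CpG, against a median of 52.4% and 6 CpG over all promoters. Htr1b and Htr2a, the closest pair among the receptors searched, had no motif of the 4 in common. The matches describe these letters only.

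Genes whose pattern over the 30 mice was most like that of each receptor were ranked by the same centred Pearson's r among genes tested in both sexes. Htr2a was closest to Reps2 (0.943), Sphkap (0.941) and Ppfia2 (0.939), and without animals 25, 33 and 39 these stayed at 0.917, 0.903 and 0.895. Htr4 was closest to Mctp1 (0.937), Lass6 (0.932) and Rev3l (0.919), which were at 0.916, 0.895 and 0.881 without the 3 mice. Htr2c was close to Trpm3 (0.922) and Fam40b (0.888), values that changed little without the 3 mice (0.91 and 0.879). Htr1a was closest to Spata2 (0.888), Bcr (0.887) and 2700081O15Rik (0.884), and Htr1b to Cyld (0.884), Lonrf2 (0.869) and a gene without a symbol (0.869). Without the 3 mice these were lower, at 0.77, 0.785 and 0.768 for Htr1a and 0.763, 0.669 and 0.649 for Htr1b. Htr5a was close to Rassf5 (0.912) and a gene without a symbol (0.91), and Htr3a was closest to Slc39a11 (0.795), Krt2 (0.736) and Gna14 (0.726). Without the 3 mice the values of Htr5a were 0.758 and 0.709, and those of Htr3a 0.787, 0.749 and 0.715. Htr5b had no close companion, its highest being Vstm2b at 0.667, a gene without a symbol at 0.659 and Kctd8 at 0.646. Htr7 was closest to Elmo1 (0.809), Taf6 (0.795) and Grin2d (0.792), which were at 0.418, 0.496 and 0.491 without the 3 mice.

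Htr2c was set beside the choroid plexus markers because its level there is known to be high and the plexus is easily caught in a dissection. The 15 markers, with transthyretin (Ttr) as the most abundant, summed to 2220 to 5750 CPM in SI females and 1380 to 7360 CPM in GH females. In each group 0 of the 15 markers were at 0 in every library. The difference in mean log2 level was 0.43 (two-sided p = 0.242 by exact permutation of housing, 6435 splits). In the fit 15 of 15 markers had a positive Log2FC in females (median 0.181) and 0 were called, while 52.8% of all genes were positive. In males 12 of 15 were negative (median -0.08), beside 50.7% of all genes. In the interaction 15 of 15 were negative, beside 53.7% of all genes, and 0 were called in either. Markers of the same tissue can move together, so they are not separate observations. In females Htr2c and the summed markers rose together over the 15 mice, with Pearson's r = 0.759 (permutation p = 0.0011, adjusted over 4 relations 0.0044) and Spearman's rho = 0.775 (permutation p = 0.00126, adjusted 0.00504). Without the 2 mice farthest from the median of the list, r was 0.735. Within GH females r was 0.932 (n = 7, exact permutation p = 0.00198) and within SI females 0.69 (n = 8, exact permutation p = 0.0584). With the mean of the markers' log2 CPM, in place of their sum, added to the model, the Log2FC of Htr2c in females was -0.15 (adjusted p = 0.376, edgeR).

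Over all 15 males, the main setting, Pearson's r was 0.088 (permutation p = 0.754, adjusted over 4 relations 0.754). Spearman's rho was 0.079 (permutation p = 0.784, adjusted 0.916). Males fell into separate groups on the choroid plexus list, which that r mixes. The values within groups rest on a limit added after seeing the data. Animals 1, 2, 3, 7 and 8, of which 2 were SI and 3 GH, had summed levels of 228 to 416 CPM and Ttr at 17.6 to 132 CPM, and the other 10 had 2160 to 4830 CPM. Htr2c was nevertheless at 28.2 to 34.8 CPM in the 5 males with few choroid plexus transcripts. Among the 10 others r was -0.414 (permutation p = 0.235), and among the 7 left without animals 25, 33 and 39 it was 0.441 (exact permutation p = 0.313) with a rho of 0.786 (exact permutation p = 0.048). The SI and GH male groups differed on the list by 0.265 in mean log2 level (exact permutation test, p = 0.831).

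**Figure D4:**
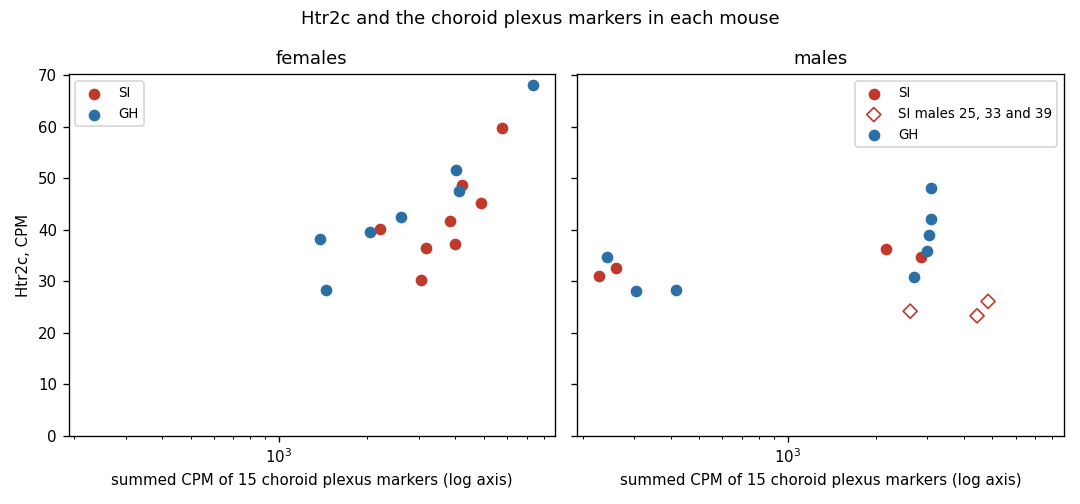
Htr2c level (CPM, axis from 0) against the summed CPM of 15 choroid plexus markers (log axis) in each female (left) and male (right). Red dots are SI mice, blue dots GH mice and open diamonds SI males 25, 33 and 39. In females Htr2c climbs with the markers to 68.2 CPM in the mouse with 7360 summed CPM, and in males 5 mice lie at 228 to 416 summed CPM with Htr2c still at 28.2 to 34.8 CPM.

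Htr3a was compared in the same way with 12 interneuron markers, which summed to 837 to 1230 CPM over all mice. Pearson's r was 0.112 in females (permutation p = 0.691, adjusted 0.754; rho 0.032) and 0.229 in males (permutation p = 0.418, adjusted 0.754; rho 0.214). Neither relation passed the threshold. One interneuron marker, Npy, was called in females, at a Log2FC of 0.15 (adjusted p = 0.035, edgeR), and none in males.

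Of the remaining serotonin receptor genes on the list, 3 were in the table. Htr6, coupled to Gs, was at 3.22 to 5.89 CPM, Htr1f, an inhibitory receptor, was below 1 CPM in 12 of 30 mice, and Htr1d was below 1 CPM in 30 of 30. Of these, 2 were tested in each sex and 0 called. Genes that make, store, take up or break down serotonin numbered 10 in the table. The serotonin transporter Slc6a4, made in raphe cell bodies, was below 1 CPM in 30 of 30 mice, and Tph2, the neuronal enzyme of serotonin synthesis, was at 0.823 to 2.38 CPM. Of the 9 tested in females 1 was called. Maob, a monoamine oxidase of the outer mitochondrial membrane, fell from 31.8 to 40.3 CPM in GH (median 34.8) to 26.1 to 32.3 CPM in SI (median 29.5), a Log2FC of -0.28 ± 0.0538 (SE, adjusted p = 0.0103, edgeR). The highest SI female, at 32.3 CPM, was above the lowest GH female, at 31.8 CPM.

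Downstream of the receptors, 3 of 21 G protein subunits and effectors were called in females, all lower. They were Gnai2, an inhibitory G protein alpha subunit through which Htr1 receptors signal (Log2FC -0.17, adjusted p = 0.0127), Adcy5, an adenylyl cyclase (-0.27, adjusted p = 0.0287), and Plcb3, a phospholipase C of the Gq pathway (-0.21, adjusted p = 0.0296). Gnai2 was at 233 to 271 CPM in SI and 276 to 308 CPM in GH females, without overlap, as 0.324% of the genes tested in females were. Of 13 regulators and partners 4 were called in females. Arrb1, an arrestin that binds activated receptors, was lower (-0.24, adjusted p = 0.00971), as were Dlg4, the postsynaptic scaffold PSD-95 (-0.18, adjusted p = 0.0242), and Deaf1, a transcription factor known to act on Htr1a (-0.17, adjusted p = 0.0134). Arrb2, the other arrestin, was higher (0.16, adjusted p = 0.0413). The median Log2FC was -0.027 over the effectors and 0.0 over the regulators, beside 0.008 over all genes, and 2.93% of all genes were called lower and 0.961% higher. In edgeR without surrogate variables 0 of these 8 genes were called (adjusted p from 0.0821 to 0.204), and neither were any of the 16026 genes in females, though all 8 kept their sign. In limma-voom with sample quality weights, also without surrogate variables, all 8 were called. With 1 mouse left out, 1 of the 8 stayed called without SI female 68, 3 without SI female 45, 4 without SI female 49, 63 or 73 or GH female 48 or 54, 6 without GH female 71, and 8 in the other fits.

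In males 0 genes of these lists were called. The smallest p-values belonged to Adcy9 (Log2FC -0.36, adjusted p = 0.295), Adcy1 (-0.46, adjusted p = 0.295) and Arrb1 (-0.24, adjusted p = 0.3, edgeR). Adcy9 was at 4.75 to 72.3 CPM in SI males (median 34.3) and 45.3 to 74.5 CPM in GH males (median 50.4), so the groups overlapped. Without animals 25, 33 and 39 the values were -0.14 for Adcy9, -0.18 for Adcy1 and -0.084 for Arrb1 (adjusted p = 0.834, 0.687 and 0.834). With a single male left out Adcy9 ran from -0.7551 to -0.1187, the latter without animal 25. The interaction test called 0 genes of the lists. Maob, called in females, had an interaction Log2FC of 0.27 (adjusted p = 0.534). That value compares the Log2FC of males with that of females, not their levels. In the male fit the Log2FC of Maob was -0.086 (adjusted p = 0.729, edgeR).

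**Figure D5:**
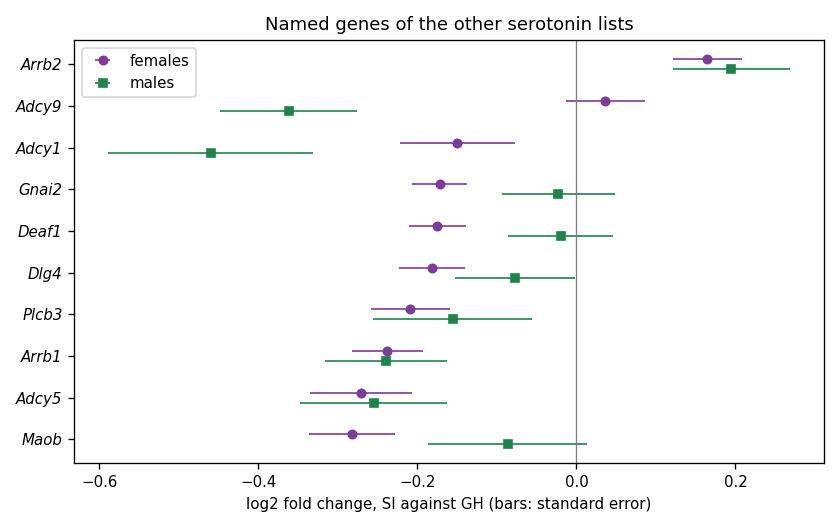
Fitted Log2FC of SI against GH, with standard errors as bars, for the named genes of the serotonin lists in females (circles) and males (squares). In females Arrb2 is to the right of 0 and Maob, Adcy5, Arrb1, Plcb3, Dlg4, Deaf1 and Gnai2 to the left; no male value passed the threshold.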

How the data were processed

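Per the labels' processing notes, Trimmomatic 0.39, Salmon 1.8.0 and DESeq2 1.24.0 were used with GRCm39 (mm39), and the authors deposited raw counts as whole numbers for each gene in each mouse. Every gene in the table has a total of at least 100 counts. All 30 columns were matched to mice by name, and no pair of libraries was identical. Symbols, lengths and coordinates came from GENCODE vM1 on NCBIM37, another build than the authors', and promoters from RefSeq on GRCm38.p6. Strand use in counting is not given in the sources used here.

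Each sex was fitted alone. Genes passing filterByExpr (at least 10 counts, total of at least 15) were scaled by TMM and tested with edgeR 4.0.16 in R 4.3.3 (glmQLFit, glmQLFTest). Surrogate variables came from sva 3.50.0 (3 in females, 2 in males, 4 over all mice), their number set with 20 permutations. P-values were adjusted over all genes with a threshold of 0.05. Log2 CPM used a prior count of 2. Correlations used 100000 resamples, or all orders under 10 mice, two-sided. Alternatives were no surrogate variables, DESeq2 1.42.0, limma-voom with sample quality weights and no surrogate variables (limma 3.58.1), DESeq2 size factors, no filter, the position digit of the sample titles in place of surrogate variables, a choroid plexus covariate, removal of length and GC trends, leaving out each mouse, and leaving out SI males 25, 33 and 39. Steps were tested on simulated data. The receptors, lists, markers and tests were chosen with earlier results of these data known. Named genes are the 9 receptors, genes of the serotonin lists that were called or had the 3 smallest p-values of a sex, the 3 genes most like each receptor, and defining markers; the results of 2 such genes are not reported here. Totals per library ranged from 18809307 to 100844898, and no pair of replicates agreed within sampling noise (lowest chi-square per degree of freedom 9.29), so precision is set by the spread between mice.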

Additional observations from a re-analysis of the deposited data

Results flagged for a closer look

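Of the 36 combinations of a receptor gene and a group that were examined for a mouse far from its group by Dixon's criterion, 2 met it, and chance alone gives about 1 in 20. Htr1b was at 8.96 CPM in SI female 73, and the next highest SI female was at 7.49 CPM around a group median of 7.08. Htr2a was at 5.44 CPM in GH female 78, and the next lowest GH female was at 7.06 CPM around a group median of 7.66. The same female was also the lowest of its group for Htr1a, Htr1b, Htr2c and Htr4. Its library had the lowest score on the leading principal component of the females (-38.16). Its slope on transcript length, -0.113, was the lowest of the GH females. SI female 53 was near it, at -33.53 and -0.132. The part of these library traits in the receptor values was not tested.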

How the results depend on the processing

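No paired analysis was possible because no replicate number is shared between groups. The count of receptors called stayed at 0 of 9 under every alternative and in all 30 fits that left out a mouse, except that removal of length and GC trends in females called 1, Htr2c. The causes were not tested. The number of all genes called in females was 624, and 0 without surrogate variables or with the position digit in their place, 1262 in DESeq2, 838 in limma-voom with sample quality weights and no surrogate variables, 645 with DESeq2 size factors, 730 without a filter, 157 with the choroid plexus covariate, 1156 with length and GC trends removed, and 88 to 1427 with a mouse left out; in males it was 0, 44 in DESeq2, and 0 to 2414 with a mouse left out, while DESeq2 called 10 in the interaction. Under alternatives other than leaving out 1 mouse, 193 values of single receptors kept direction and side of the threshold, 13 turned in sign and 1 was newly called.

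Turned in sign were, in females, Htr1a with the position digit (-0.0041) and Htr5a with the choroid plexus covariate (-0.042), and in males Htr5a without surrogate variables (-0.25), in limma-voom (-0.030) and with the position digit (-0.27), Htr7 without surrogate variables (-0.085) and with the position digit (-0.076), Htr2c with length and GC trends removed (0.054), and Htr1a without animals 25, 33 and 39 and surrogate variables (0.039), a setting added after seeing the data. The interaction turned for Htr2c without surrogate variables (-0.18) and in limma-voom (-0.10), for Htr7 without surrogate variables (-0.036) and for Htr5a without those 3 mice (0.025).

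Leaving out a mouse turned Htr1a (-0.0166 to 0.0802), Htr4 (-0.0589 to 0.0301), Htr5a (-0.0279 to 0.0765), Htr5b (-0.0677 to 0.1807) and Htr7 (-0.1275 to 0.0152) in some female fits, and Htr1b (-0.1927 to 0.0021), Htr2c (-0.2308 to 0.0016), Htr5a (-0.1489 to 0.1154) and Htr7 (-0.0589 to 0.1323) in some male fits. The choroid plexus difference in males was -0.059 as a mean of the markers' log2 CPM. Htr2c against that list in males gave r = 0.641 without animals 25, 33 and 39, over mice of both choroid plexus groups, and -0.414 among males above 1000 summed CPM, a limit added after seeing the data. Htr3a against the interneuron list in females was -0.084 without the 2 farthest mice.

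The 8 genes of the other serotonin lists that were called in females kept their sign in every female fit. All 8 stayed called in DESeq2, limma-voom, with DESeq2 size factors and with length and GC trends removed, 7 did without a filter (Arrb2 lost), 2 (Maob and Arrb1) with the choroid plexus covariate, 0 with the position digit and 1 to 8 with a mouse left out, the 1 being without SI female 68. Adcy9 turned in females in limma-voom (-0.016) and with length and GC trends removed (-0.041), and from -0.0332 to 0.0589 with a mouse left out, and was called in males by DESeq2 (adjusted p = 0.0465). In males, Deaf1 turned without surrogate variables (0.035), with the position digit (0.057) and with a mouse left out (-0.0468 to 0.0331), Gnai2 in limma-voom (0.0007), without animals 25, 33 and 39 and surrogate variables (0.0035) and with a mouse left out (-0.0611 to 0.0434), and Maob and Arrb2 without those 3 mice (0.036 and -0.0015).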

Other observations

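Tph1, the tryptophan hydroxylase of the pineal gland and the gut, had a median of 0.334 CPM over the 30 mice but 14.7 CPM in SI female 49 and 5.31 CPM in GH male 16. The photoreceptor and pineal transcription factor Crx was at 1.08 CPM in SI female 49 and 1.35 CPM in GH male 16, against a median of 0.105 CPM. Aanat, the enzyme that turns serotonin towards melatonin, was at 0.945 CPM in SI female 49, against a median of 0.121 CPM. The next highest were SI males 25 and 33, at 0.297 and 0.226 CPM, so GH male 16 was not among the 3 highest for Aanat. These genes were chosen after their values were seen.

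Markers of neighbouring brain regions were present in all groups. The 9 thalamus and habenula markers summed to 57.3 to 238 CPM, the 7 striatum markers to 140 to 221 CPM and the 4 cortex markers to 85.1 to 152 CPM. In males 7 of the 8 tested thalamus and habenula markers had a positive fitted Log2FC, with a median of 0.515 beside -0.002 over all genes, 6 of them at an unadjusted p under 0.05 (13.0% of all genes) and 0 called. In females 1 of 12 interneuron markers (Npy) and 1 of 7 dentate gyrus markers were called, beside 3.89% of all genes. The latter was Lct, higher in SI females (Log2FC 0.42, adjusted p = 0.0458, edgeR), and 7 of 7 dentate gyrus markers had a positive fitted value with a median of 0.179, beside 52.8% of all genes. No gene was called in females by edgeR without surrogate variables. The part of these differences in the receptor values was not tested.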
